A study of Pinus pinaster with 18 samples.

Results

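Somatic embryos of maritime pine (*Pinus pinaster*) were compared between the stages ES2 and ES1, the first of the maturation steps that were sampled. The comparison was made on 6 libraries, 3 from ES2 embryos and 3 from ES1 embryos, out of 18 in the series. A transcript entered it when it was above 2 CPM (read counts scaled to the total of their library) in at least 3 of these 6 libraries, which kept 21844 of the 287424 transcripts of the table. ES2 embryos were opaque, had no cotyledons yet and were taken after 6 to 10 weeks of maturation. ES1 embryos were translucent, at an early stage, and were taken after 4 to 6 weeks. All of them came from 1 embryogenic line, PN519, and therefore from 1 genotype, and both stages matured in darkness at 24 °C on the same medium, which held 9 g/L phytagel, 68 g/L sucrose and abscisic acid at 80 µM. The stages differ in time on the medium as well as in embryo form, and these cannot be told apart. Other groups of the series were used only for reference, namely ES3 (cotyledonary somatic embryos of the same line, 12 to 14 weeks) and the zygotic stages EC (early cotyledonary) and PC (pre-cotyledonary), taken from seeds of 1 orchard.

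In conifers, a somatic embryo starts from a proliferating embryonal mass and is brought to maturity by abscisic acid together with a medium that withholds water. During this phase seeds and somatic embryos build up reserves of protein, oil and carbohydrate, accumulate late embryogenesis abundant (LEA) proteins, which are hydrophilic proteins linked to desiccation tolerance, and give up cell division. LEC1, FUS3 and ABI3, the transcription factors best known for directing seed maturation in *Arabidopsis*, and the WOX factors of early embryo patterning had 0 matches among the protein names used here, so these were not analysed.

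Transcripts keep the identifiers of the deposited table. Protein names are best matches in other species from the supplementary tables of the study, whose authors drew them up from these same samples, and no position in a genome is given. A name was at hand for 1435 of the 21844 transcripts, after leaving out uninformative ones, with 682 different names among them. A name was shared by 1068 of these transcripts, so that reads may be divided among copies of nearly the same sequence, and counts were therefore also summed by name. Identity as embryos rests on the labels and on the LEA and storage protein transcripts described below, which all 6 libraries carried.

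Total counts were 38597996 to 40755797 in ES2 and 22725467 to 30897160 in ES1. The methods mention technical replicas beside independent samples, and neither they nor the labels say for the 3 libraries of a stage which is meant. The p-values below therefore reflect variation among libraries, and this may be technical. Within a stage, pairs of libraries differed well beyond sampling noise (chi-square over its degrees of freedom 12.9 to 57.7). The biological coefficient of variation was 0.228 in ES2 and 0.191 in ES1. The first principal component separated the stages and held 82.4% of the variance. The second held 10.5% and set ES2 replicate B and ES1 replicate C apart from the other 4 libraries. In bulk samples such as these, fewer cells of a type and less RNA per cell cannot be told apart.

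Between the stages a large part of the transcriptome differed, with more transcripts lower than higher in ES2 and larger changes among the lower ones. By edgeR's quasi-likelihood test with Benjamini-Hochberg adjustment, 2011 of 21844 transcripts (9.21%) were higher in ES2 and 2568 (11.8%) were lower, a call being an adjusted p under 0.05 together with a log2 fold change beyond 1 or -1. In either direction this made 21% of the transcripts tested. At more than 4-fold, 200 were higher and 838 lower, and at more than 16-fold 10 were higher and 35 lower. The median log2 fold change was 1.35 among those higher and -1.58 among those lower. The called-higher transcripts took 20.9 to 21.9% of the counts of an ES2 library and 8.57 to 9.82% of those of an ES1 library. The called-lower ones took 3.00 to 3.40% in ES2 and 11.1 to 12.3% in ES1. Values of the stages did not overlap for 1995 of the calls higher and 2554 of the calls lower, where over all transcripts 25.4% lay entirely higher in ES2 and 27.5% entirely lower.

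A call rests on how the libraries are scaled. CPM below are scaled by TMM factors, which were 0.915 to 0.962 in ES2 and 1.04 to 1.09 in ES1. With library size alone, the log2 fold changes moved down, to a median of -0.20 over all transcripts in place of -0.01, and 1392 transcripts were higher and 3237 lower, so that 30.1% of the calls were higher in place of 43.9%. No call reported here changed its direction under any of the 21 settings tried. Transcripts that exceeded the minimum in the libraries of 1 stage only had to differ. They were 287 through ES2 alone, of which 275 were called higher, and 530 through ES1 alone, of which 455 were called lower. At the edge of the minimum, the lowest third-highest CPM among kept transcripts was 2.01 and the highest among those left out was 1.99.

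Among the named transcripts, 188 of 1435 (13.1%) were higher and 248 (17.3%) were lower. These shares stand as background for the counts of each list. They are described in the order of regulators, seed maturation proteins, reserves, secondary metabolism and hormones, and then of cell wall and redox proteins, cell division, chromatin and defence. Gene lists were drawn up by keyword from the names.

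Regulators of transcription were led by matches of LHW, which in *Arabidopsis* is the bHLH factor LONESOME HIGHWAY that promotes the divisions founding vascular tissue. Of 102 transcription factor transcripts kept, 26 were higher (25.5%) and 7 lower (6.86%), with a median log2 fold change of 0.59. Of these calls, 6 of those higher and 2 of those lower were above the minimum in 1 stage alone and so had to differ. By name this was 13 of 52 higher and 3 lower. The LHW-like transcript ppt_219807 was at 19.7, 21.1 and 22.2 CPM in ES2 replicates A, B and C, against 2.87, 2.55 and 2.21 CPM in ES1. The lowest ES2 library was several times the highest ES1 library. Its log2 fold change was 3.04 (SE 0.17, adjusted p = 7.19e-06). All 4 transcripts of that name were higher, by 2.73 to 3.04 on the log2 scale, and 1 of them was kept through ES2 alone. Over counts summed by name, 9.01% of all entries were higher and 11.6% lower. The summed LHW-like transcripts gave 80.7, 82.7 and 78.7 CPM in ES2 and 12.9, 10.2 and 10.5 CPM in ES1, a log2 fold change of 2.85 (SE 0.13).

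A match of the AT-hook protein AHL21, a nuclear DNA-binding protein family of plants, was higher as well. Transcript ppt_55129 was at 66.7, 59.7 and 57.2 CPM in ES2, against 19.2, 10.7 and 15.5 CPM in ES1, with no overlap and a log2 fold change of 2.02 (SE 0.20, adjusted p = 8.16e-05). MYB36, which in *Arabidopsis* directs the differentiation of the root endodermis, had a match in ppt_243731, named here after its values were seen, at 2.82, 2.76 and 4.86 CPM in ES2 against 0.125, 0.916 and 0.328 CPM in ES1. It was above the minimum in the ES2 libraries alone, so these low levels are given as a description.

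NAC factors, a plant-specific family with roles from shoot meristem boundaries to senescence, changed in both directions. Of 8 transcripts sharing 1 NAC match from *Pinus massoniana*, 7 were higher and 1 lower, of which 2 were kept through ES2 alone and the lower one through ES1 alone. The NAC transcript ppt_207946 was at 9.83, 10.3 and 10.1 CPM in ES2, against 3.46, 3.86 and 3.89 CPM in ES1 (log2 fold change 1.43, SE 0.18, adjusted p = 0.000282). The NAC transcript ppt_207949 rose as well, at 6.81, 7.19 and 7.26 CPM in ES2 and 4.02, 2.71 and 2.91 CPM in ES1 (log2 fold change 1.14, SE 0.23, adjusted p = 0.004), and fell below the fold threshold with library size alone (0.95). The exception, ppt_55145, averaged 0.932 ± 0.281 CPM in ES2 and 3.39 ± 0.62 CPM in ES1 (SD, n = 3 libraries each).

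Ethylene response factors, which bind promoters of stress and defence genes, were higher in several cases. The ERF2 match ppt_109017 was at 13.9, 15.1 and 16.7 CPM in ES2, against 5.80, 6.84 and 5.33 CPM in ES1 (log2 fold change 1.35, adjusted p = 0.000283). Matches of ERF5 (ppt_109018), ERF106 (ppt_109020) and ERF1-like (ppt_109019 and ppt_109022) had log2 fold changes of 1.20, 1.28, 1.20 and 1.01. ERF012 matches went the other way, with ppt_3095 at 2.60, 2.39 and 1.77 CPM in ES2 and 6.96, 9.61 and 9.30 CPM in ES1 (log2 fold change -1.94, SE 0.25, adjusted p = 0.000333). The other ERF012 transcript, ppt_47242, was kept through ES1 alone. It had a log2 fold change of -1.65 (adjusted p = 0.039), and this call was lost on leaving out any library but ES2 replicate A, with adjusted p of 0.0584 (ES2 B), 0.0517 (ES2 C), 0.0897 (ES1 A), 0.0501 (ES1 B) and 0.105 (ES1 C).

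Matches of SPL2, a squamosa promoter-binding factor of the kind that microRNA156 regulates in *Arabidopsis*, were higher in all 3 transcripts, 1 of them kept through ES2 alone. Summed, SPL2 gave 19.7, 18.7 and 27.3 CPM in ES2, against 7.64, 6.97 and 8.73 CPM in ES1 (log2 fold change 1.49, SE 0.19, adjusted p = 0.000308). The bHLH transcript ppt_69105 was at 31.9, 25.4 and 31.3 CPM in ES2 and 12.6, 13.5 and 12.7 CPM in ES1 (log2 fold change 1.19, adjusted p = 0.000195). A B3-domain protein (ppt_1971), a subunit NF-YC6 (ppt_170608) and NFYA4 (ppt_188149 and ppt_188151), the NF-Y proteins being subunits of a CCAAT-binding complex, were lower, with log2 fold changes of -1.09, -1.23, -1.06 and -1.01. With library size alone 22 transcription factor transcripts were higher and 16 lower.

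**Figure D1:**
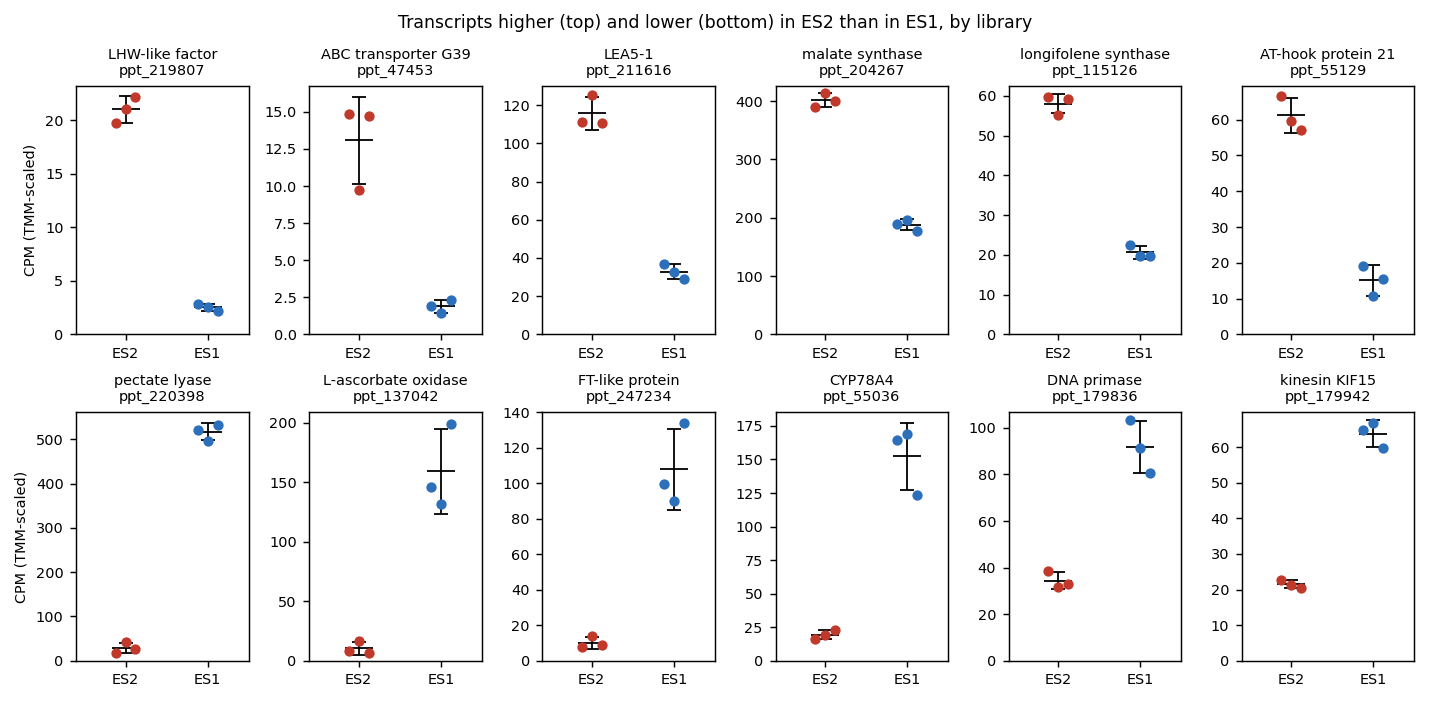
CPM (TMM-scaled, linear axes from 0) in each of the 3 ES2 libraries (red, left) and the 3 ES1 libraries (blue, right) for 6 transcripts higher and 6 lower in ES2; the horizontal line is the mean and the error bar the SD of 3 libraries. In no panel do the libraries of the stages overlap, and pectate lyase lies between 18.5 and 42.1 CPM in ES2 against 496.6 to 532.8 CPM in ES1. Transcripts were named by low p, or by size of change among those without overlap.

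LEA and seed maturation proteins had many more transcripts higher than lower in ES2. Of 66 transcripts 22 were higher (33.3%) and 1 was lower (1.5%), with a median log2 fold change of 0.72 against -0.01 over all transcripts. Their summed level was 15358 ± 903 CPM in ES2 and 8912 ± 441 CPM in ES1 (SD, n = 3 libraries each). By name this was 4 of 18 higher and 1 lower, since many of the transcripts share a name.

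Matches of LEA5-1 of Chinese pine were higher throughout. The LEA5-1 transcript ppt_211616 was at 111.1, 125.3 and 110.4 CPM in ES2, against 36.8, 32.5 and 28.9 CPM in ES1 (log2 fold change 1.82, SE 0.13, adjusted p = 1.39e-05). All 4 LEA5-1 transcripts were higher and summed to 312.7, 292.6 and 319 CPM in ES2 and 99.99, 89.5 and 70.5 CPM in ES1. Matches of LEA1-2 were higher in 8 of 11 transcripts, and summed to 4015, 3813 and 3624 CPM in ES2 against 1787, 1633 and 1667 CPM in ES1 (log2 fold change 1.17, SE 0.11). Each ES2 library exceeded each ES1 library in both groups.

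A peanut LEA group 9 match, ppt_155780, was at 1679, 1124 and 1509 CPM in ES2 and 676.5, 606.1 and 521.9 CPM in ES1 (log2 fold change 1.26, SE 0.17, adjusted p = 0.000385). Of 17 transcripts that match a white spruce LEA protein 7 were higher, and ppt_115979 among them was at 71.7, 59.1 and 59.4 CPM in ES2 against 20.5, 20.1 and 17.3 CPM in ES1 (log2 fold change 1.71, SE 0.13, adjusted p = 2.35e-05). Other LEA transcripts with high counts stayed under the fold threshold, at log2 fold changes of 0.95 (LEA4-1, ppt_70950), 0.70 (LEA4-3, ppt_117499), 0.56 (ppt_200867) and 0.51 (ppt_200866), with adjusted p under 0.05 for each. The exception was a LEA3-1 match, ppt_153196, at 6.70, 11.4 and 5.88 CPM in ES2 and 60.6, 40.1 and 91.7 CPM in ES1 (log2 fold change -3.01, SE 0.34, adjusted p = 0.00016).

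Storage and oil body proteins split into those that were higher and those with nearly equal levels. Of 17 transcripts 5 were higher (29.4%) and none lower. The median log2 fold change was 0.01 with TMM factors and -0.18 with library size alone, where 1 was called. A match of a vicilin-like seed storage protein, ppt_75171, was at 29.0, 33.4 and 33.1 CPM in ES2 against 13.6, 11.1 and 13.8 CPM in ES1 (log2 fold change 1.31, SE 0.14, adjusted p = 0.000129). All 3 transcripts of this name were higher. A 7S globulin match (ppt_75169) was at 31.2, 39.7 and 34.9 CPM in ES2 and 16.5, 14.4 and 19.5 CPM in ES1 (log2 fold change 1.07, adjusted p = 0.000649), and fell to 0.98 without ES2 replicate B and 0.97 without ES1 replicate B.

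Caleosins, proteins of the oil body surface, were not called in any of 10 transcripts. Those that match *Pinus massoniana* summed to 670, 874.2 and 726.7 CPM in ES2 and 764.6, 691.2 and 877.4 CPM in ES1 (log2 fold change -0.04, SE 0.14). Caleosin CLO1-1 (ppt_56106) was at 27.7, 41.2 and 22.9 CPM in ES2 and 26.2, 19.9 and 38.7 CPM in ES1, and the groups overlapped. An oil body-associated protein (ppt_119643) had a log2 fold change of 0.55 (adjusted p = 0.017).

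Transcripts for carbon reserves and sugar transport were higher in 22 of 44 cases (50%) and lower in 2 (4.5%), with a median log2 fold change of 1.01. Malate synthase, the enzyme of the glyoxylate cycle that lets plants turn acetyl units from oil into sugars, supplied 10 of the 22. All 10 malate synthase transcripts had log2 fold changes within 1.03 to 1.15. Summed, they gave 1663, 2040 and 1817 CPM in ES2, against 826.3, 892.2 and 893.9 CPM in ES1 (log2 fold change 1.08, SE 0.12, adjusted p = 0.00012). With values so near the fold threshold the count depends on scaling, and with library size alone the list held 11 higher and 6 lower, and the malate synthase ppt_204267 was at 0.91 in place of 1.10.

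Transcripts of sugar handling apart from malate synthase were called as well. Alpha-galactosidase, which releases galactose from raffinose-type sugars, was higher in 7 of 11 transcripts, with ppt_91343 at 13.3, 12.0 and 10.8 CPM in ES2 and 4.21, 4.02 and 4.22 CPM in ES1 (log2 fold change 1.54, SE 0.17, adjusted p = 0.000153). SWEET proteins are sugar transporters of the cell membrane. All 3 transcripts of 1 SWEET name were higher, and a SWEET6b match, ppt_123492, was at 2.44, 2.84 and 2.15 CPM in ES2 and 0.374, 0.327 and 0.410 CPM in ES1. The SWEET6b transcript exceeded the minimum in ES2 libraries alone, and its values are a description. Sucrose synthase, which cleaves sucrose, was lower in 1 of 4 transcripts and summed to 27.5, 26.4 and 19.4 CPM in ES2 against 46.9, 50.8 and 42.9 CPM in ES1 (log2 fold change -0.94). The alpha-amylase ppt_249192 had a log2 fold change of -0.99 (adjusted p = 0.000247), just short of the threshold.

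**Figure D2:**
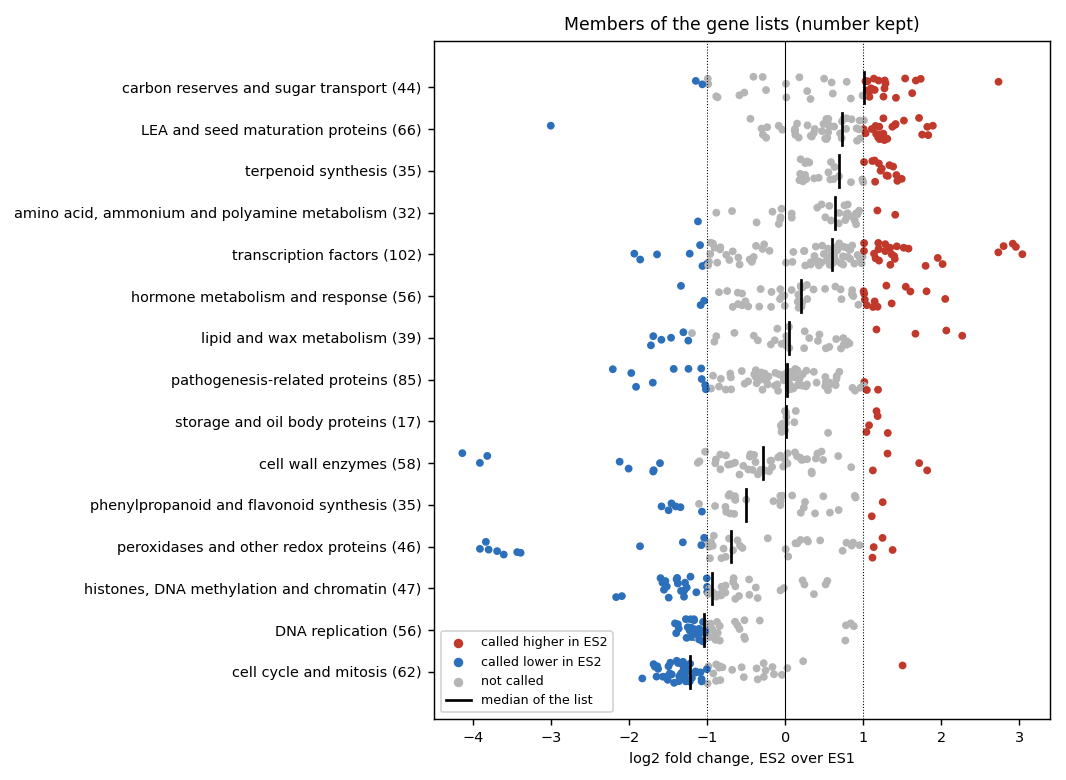
Log2 fold changes, ES2 over ES1, of every kept transcript of 15 gene lists, 1 point each; red points were called higher, blue points lower and grey points neither, the black bar is the median of the list and dotted lines mark the fold threshold. The medians run between 1.01 for carbon reserves and sugar transport and -1.22 for cell cycle and mitosis.

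Lipid and wax metabolism held 4 transcripts higher (10.3%) and 6 lower (15.4%) of 39, shares near those of all named transcripts, and its median log2 fold change of 0.05 turned to -0.14 with library size alone. Fatty acyl-CoA reductase, which makes the fatty alcohols of waxes, was higher in all 3 transcripts (1 kept through ES2 alone), with ppt_162814 at 19.9, 13.7 and 16.6 CPM in ES2 and 4.43, 3.01 and 4.59 CPM in ES1 (log2 fold change 2.06, SE 0.22, adjusted p = 0.000126). Lipoxygenase, which oxidises polyunsaturated fatty acids, was lower in 4 of 5 transcripts that match a yew enzyme. Of these ppt_146194 was at 7.89, 9.37 and 4.91 CPM in ES2 and 25.6, 20.1 and 26.0 CPM in ES1 (log2 fold change -1.69, SE 0.24, adjusted p = 0.000539). A phospholipase C2 (ppt_199283) was lower by a similar amount (log2 fold change -1.72, adjusted p = 4.52e-05), and a lipid-transfer protein (ppt_225858) missed the fold threshold at -0.91.

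In amino acid, ammonium and polyamine metabolism 2 of 32 transcripts were higher (6.25%) and 1 lower (3.1%), the latter kept through ES1 alone. Both shares were under the 13.1% and 17.3% over named transcripts. With no fold asked for, 16 were higher at an adjusted p under 0.05. Asparagine synthetase, which stores nitrogen as asparagine, accounted for most of these 16. Its 10 transcripts that match a known *Pinus pinaster* sequence summed to 622.1, 705.1 and 625.4 CPM in ES2, against 345.7, 343.9 and 373.9 CPM in ES1 (log2 fold change 0.88, SE 0.11, adjusted p = 0.00023), and none passed the fold threshold. Each ES2 library was well above each ES1 library all the same. A Scots pine asparagine synthetase match, ppt_51012, was called at 50.6, 53.2 and 56.4 CPM in ES2 and 21.8, 26.4 and 22.5 CPM in ES1 (log2 fold change 1.18, SE 0.12, adjusted p = 9.49e-05; 0.99 with library size alone). The cationic amino acid transporter CAT6 (ppt_202096) was at 40.9, 25.9 and 32.9 CPM in ES2 and 14.5, 10.8 and 12.1 CPM in ES1 (log2 fold change 1.41, adjusted p = 0.000481). Spermidine synthase, of the polyamine pathway, averaged 0.82 on the log2 scale over its summed transcripts (ppt_143495: 0.92), under the threshold.

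Terpenoid synthesis was higher without exception among its calls, 14 of 35 transcripts (40%) higher and 0 lower, with a median log2 fold change of 0.69. With library size alone 9 were higher. Longifolene synthase, a sesquiterpene synthase of pine resin, was higher in 8 of 9 transcripts. Of these 8, 1 was kept through ES2 alone, the only such call of the list. The 9 transcripts summed to 247.5, 252.5 and 273.1 CPM in ES2 against 107.9, 101.3 and 89.8 CPM in ES1 (log2 fold change 1.37, SE 0.11, adjusted p = 3.07e-05). The longifolene synthase ppt_115126 was at 59.6, 55.3 and 59.3 CPM in ES2 and 22.5, 19.8 and 19.6 CPM in ES1 (log2 fold change 1.49). HMG-CoA reductase controls the entry to the mevalonate pathway that feeds these enzymes, and was higher in 3 of 6 transcripts of a Sitka spruce match and 2 of 3 of a white spruce match. The white spruce match ppt_82058 had a log2 fold change of 1.15 (0.96 with library size alone), and ppt_120186 one of 1.01 (0.82 with library size alone and 0.96 without ES1 replicate A). Alpha-bisabolene synthase, another sesquiterpene synthase, was not called in any of 9 transcripts and summed to 853.6, 1095 and 864.8 CPM in ES2 and 750.3, 791.7 and 824 CPM in ES1 (log2 fold change 0.25, adjusted p = 0.146). A farnesene and ocimene synthase match (ppt_60446) had a log2 fold change of 0.69.

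Hormone genes were higher in 13 of 56 transcripts (23.2%) and lower in 3 (5.36%), where 13.1% of all named ones were higher and 17.3% lower. By name this was 4 of 23 higher and 2 lower. With library size alone 6 transcripts were higher and 3 lower. GA2ox7, an enzyme that inactivates gibberellins, was at 13.8, 7.64 and 7.75 CPM in ES2 (ppt_117714), against 2.90, 2.22 and 1.89 CPM in ES1 (log2 fold change 2.05, SE 0.31, adjusted p = 0.00073). GASA2, a small cysteine-rich peptide of a family that gibberellin regulates, was higher in all 4 transcripts (ppt_168204: 12.1, 6.48 and 7.44 CPM in ES2, 3.09, 2.42 and 1.89 CPM in ES1, log2 fold change 1.81). In both of these ES2 replicate A was the highest library. ACC synthase, which makes the precursor of ethylene, was higher in 5 of 9 transcripts, with ppt_173844 at 6.67, 4.83 and 4.53 CPM in ES2 and 1.44, 1.80 and 2.05 CPM in ES1 (log2 fold change 1.60, adjusted p = 0.00186). The cytochrome P450 CYP90A25, of a subfamily that makes brassinosteroids, was at the threshold (ppt_48415, log2 fold change 1.01; 0.82 with library size alone, 0.99 without ES2 replicate A or without ES2 replicate B).

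Jasmonate O-methyltransferase, which forms the volatile methyl jasmonate, was not called in any of 6 transcripts. Summed, they gave 3256, 4000 and 3557 CPM in ES2 and 3071, 3057 and 3337 CPM in ES1 (log2 fold change 0.19, SE 0.12, adjusted p = 0.229), and ES2 replicate A lay within the ES1 range.

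Enzymes of the cell wall included the largest decrease of a named transcript, and 8 of 58 (13.8%) were lower and 4 higher. This share of lower calls was close to the 11.8% over all transcripts and under the 17.3% over named ones. Of the 8 lower calls, 2 were kept through ES1 alone and so had to differ. The summed level of the list, to which abundant transcripts add most, was 1165 ± 113 CPM in ES2 and 2205 ± 138 CPM in ES1 (SD, n = 3 libraries each). With library size alone 14 were lower and 3 higher. Pectate lyase, which cleaves de-esterified pectin, was at 18.5, 42.1 and 27.3 CPM in ES2 (ppt_220398), against 521.7, 496.6 and 532.8 CPM in ES1 (log2 fold change -4.14, SE 0.28, adjusted p = 1.22e-05). The pectinesterase ppt_274801, an enzyme that removes methyl groups from pectin, was at 2.55, 2.98 and 2.10 CPM in ES2 and 38.2, 42.9 and 34.0 CPM in ES1 (log2 fold change -3.92, SE 0.18, adjusted p = 4.58e-06). An endoglucanase, which cuts cellulose-like glucans, was at 5.54, 10.2 and 8.52 CPM in ES2 (ppt_185005) and 115.2, 111.8 and 116.2 CPM in ES1 (log2 fold change -3.82, SE 0.21, adjusted p = 6.89e-06). For each of these 3 transcripts the highest ES2 library was far below the lowest ES1 library. Lack of overlap was also a condition for the largest named changes.

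Among other wall proteins, some were lower by less and some were higher. An auxin-induced cell wall protein match was not called in any of 3 transcripts. Its transcripts summed to 344.9, 478.8 and 307.1 CPM in ES2 and 665.9, 636.6 and 761.7 CPM in ES1 (log2 fold change -0.87, SE 0.17, adjusted p = 0.0033). Expansin-B17, from a family that loosens walls, was higher (ppt_217289: 40.0, 43.3 and 39.1 CPM in ES2, 13.0, 10.0 and 11.7 CPM in ES1, log2 fold change 1.82, SE 0.14, adjusted p = 2.35e-05). Xyloglucan endotransglucosylases, which cut and rejoin wall xyloglucan, were lower in 2 of 16 transcripts, 1 of them kept through ES1 alone. Their median log2 fold change was -0.38, and that of their summed counts was -0.49 (adjusted p = 0.00601). Beta-galactosidases were not called in any of 9.

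Redox proteins were lower in 11 of 46 transcripts (23.9%, against 17.3% of all named ones) and higher in 4. The count of 11 became 19 without ES2 replicate B and 20 with library size alone. L-ascorbate oxidase, a copper enzyme of the cell wall space, was lower in all 5 transcripts that match a cotton enzyme, which summed to 48.1, 92.0 and 44.1 CPM in ES2 and 789.3, 717.5 and 1058 CPM in ES1 (log2 fold change -3.80, SE 0.30, adjusted p = 2.96e-05). ES2 replicate B was the highest of the ES2 libraries here. Of the 5, ppt_137042 had a log2 fold change of -3.92 and ppt_137045 one of -3.84. The related multi-copper oxidases ppt_51802 and ppt_51806 were lower by as much, at -4.02 and -3.74. The 3 ascorbate oxidase transcripts with a strawberry match were not called, at a summed 42.7, 61.9 and 47.7 CPM in ES2 and 42.8, 47.1 and 53.2 CPM in ES1.

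Ferritin, the iron storage protein, was lower in ppt_179116 (10.1, 16.1 and 5.63 CPM in ES2 against 104, 73.0 and 211 CPM in ES1, log2 fold change -3.61, SE 0.47, adjusted p = 0.000337) and in ppt_126781 (-3.39). Class III peroxidases, which polymerise lignin and cross-link wall polymers, went in both directions. A Sitka spruce peroxidase match was higher (ppt_194962: 110, 111 and 119.9 CPM in ES2, 48.0, 52.0 and 43.7 CPM in ES1, log2 fold change 1.25, adjusted p = 4.62e-05), as was peroxidase 61 (ppt_48655, 1.12; 0.93 with library size alone). Peroxidase 57 was lower in 2 of 4 transcripts.

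Among the largest decreases outside these lists, an FT-like match, from the family of phosphatidylethanolamine-binding proteins that in *Arabidopsis* includes the floral signal FT, was at 7.75, 13.7 and 8.75 CPM in ES2 (ppt_247234), against 99.7, 89.7 and 133.7 CPM in ES1 (log2 fold change -3.42, SE 0.25, adjusted p = 1.73e-05). CYP78A4, a cytochrome P450 of a subfamily that promotes organ growth in *Arabidopsis*, was at 16.4, 18.9 and 22.9 CPM in ES2 (ppt_55036) and 164.4, 169 and 123.7 CPM in ES1 (log2 fold change -2.97, SE 0.17, adjusted p = 7.96e-06). A carboxypeptidase match (ppt_230083) had a log2 fold change of -3.91, and RADIALIS, a MYB-related factor that shapes the flower in snapdragon, one of -2.77 (ppt_87713). Having no overlap between the libraries of the stages was a condition for this choice of largest changes. With 1 transcript per name and at least 10 CPM in the higher stage, all 12 of the largest named decreases are transcripts that the study lists as hub genes of its yellow co-expression module, and 1 of the 12 largest named increases is a hub gene of any module. The modules were built on these samples and are no independent evidence. Names were drawn in part from the study's own list of hub genes, and the share of yellow hub genes among named transcripts was not counted. Of the 221 yellow hub genes kept 124 were lower and 0 higher, and of the 35 black hub genes 22 were higher and 0 lower. Over all transcripts 9.21% were higher and 11.8% lower.

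Transcripts of DNA replication were lower in 30 of 56 cases (53.6%, against 17.3% of all named ones) and higher in none, with a median log2 fold change of -1.05. Their summed level was 1080 ± 44 CPM in ES2 and 1895 ± 155 CPM in ES1 (SD, n = 3 libraries each). By name 13 of 27 were lower, and with library size alone 45 transcripts were. DNA primase, which lays the primers for new strands, was at 38.7, 31.7 and 32.9 CPM in ES2 (ppt_179836), against 103.2, 91.5 and 80.8 CPM in ES1 (log2 fold change -1.42, SE 0.13, adjusted p = 6.17e-05). A DNA polymerase (ppt_223136) and the large subunit of replication protein A (ppt_108037), which coats single-stranded DNA, had log2 fold changes of -1.40 and -1.37. MCM4 and MCM5 are parts of the helicase that opens replication origins. MCM4 was lower in all 4 transcripts and summed to 126.9, 123.5 and 117.5 CPM in ES2, against 281.9, 266.6 and 236.7 CPM in ES1 (log2 fold change -1.09, SE 0.11, adjusted p = 7.62e-05). MCM5 was lower in 4 of 5 transcripts of 1 match and 3 of 4 of another, timeless, of the replication fork, in 4 of 4, and CDT1, which loads the helicase, in 0 of 4 (summed log2 fold change -0.75).

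Cell cycle and mitosis showed the lowest median of all lists, -1.22, with 39 of 62 transcripts lower (62.9%, against 17.3% of all named ones) and 1 higher (1.61%). Of the 39, 1 was kept through ES1 alone. The summed level was 721 ± 18 CPM in ES2 and 1524 ± 96 CPM in ES1 (SD, n = 3 libraries each). The mitotic kinesin KIF15 (ppt_179942) was at 22.7, 21.4 and 20.4 CPM in ES2 and 64.9, 66.8 and 59.6 CPM in ES1 (log2 fold change -1.57, SE 0.11, adjusted p = 1.62e-05). Cyclin-A1-1, which drives S phase and entry into mitosis, was lower in 7 of 7 transcripts, at a summed 32.2, 26.3 and 33.8 CPM in ES2 and 102.7, 91.5 and 78.5 CPM in ES1 (log2 fold change -1.56, SE 0.14). These groups were far apart, with no library between them.

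The same direction held for topoisomerase 2, which untangles sister chromatids (4 of 4 lower, summed log2 fold change -1.27), the microtubule-end proteins of the EB1 family (6 of 6, -1.32), condensin (3 of 3, -1.37) and the spindle kinesin KIN-5A (3 of 3, -1.27). A kinesin 14 (ppt_190697) and a centromere protein (ppt_80443) had log2 fold changes of -1.39 and -1.53, and the topoisomerase 2 ppt_206182 one of -1.28. Beta tubulin, a subunit of microtubules, was not called in any of 4 transcripts (summed log2 fold change -0.85, adjusted p = 0.000413), and cyclin-D3-1 was lower in 1 of 3.

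Chromatin transcripts were lower in 21 of 47 cases (44.7%, against 17.3% of all named ones) and higher in none, with a median log2 fold change of -0.93. Of the 21 calls, 3 were kept through ES1 alone and so had to differ. The summed level of the list was 1101 ± 51 CPM in ES2 and 1691 ± 110 CPM in ES1 (SD, n = 3 libraries each). The histone chaperone ASF1B, which hands new histones to assembly factors, was lower in 3 of 3 transcripts, at a summed 64.6, 53.6 and 54.0 CPM in ES2 and 180.4, 158.6 and 153.7 CPM in ES1 (log2 fold change -1.52, SE 0.12, adjusted p = 2.97e-05; ppt_157418: -1.56). A linker histone H1 was at 6.51, 7.70 and 6.19 CPM in ES2 (ppt_170248) and 23.2, 34.0 and 30.0 CPM in ES1 (log2 fold change -2.10, SE 0.18, adjusted p = 4.28e-05). The large subunit of chromatin assembly factor 1 (ppt_120156) had a log2 fold change of -1.58. The chromomethylase CMT, which methylates cytosines outside CG sites, was called in 1 of 5 transcripts (ppt_150160, not called, was at -0.99), and the de novo methylase DRM2 in 0 of 4 (summed log2 fold change 0.44).

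High mobility group B7 matches were lower in 2 of 5 transcripts of 1 name, at log2 fold changes of -1.60 to -0.82, and in 1 of 3 of another. Of the 2 lower transcripts of the first name, 1 was kept through ES1 alone. The transcript ppt_230048 had a log2 fold change of -1.14 (adjusted p = 0.00281) and ppt_230051 one of -1.01 (adjusted p = 0.0246), which was not called without ES2 replicate C (-0.77), ES1 replicate A (-0.97) or ES1 replicate C (-0.97). A histone H3.3 match at low level, kept through ES1 alone (ppt_158132, -1.38, adjusted p = 0.0199) was likewise not called without ES2 replicate C, ES1 replicate A or ES1 replicate C, with adjusted p of 0.0671, 0.0534 and 0.0619. The study lists 63 transcription factors and related proteins among its hub genes, of which 34 were kept. Of these, 2 were higher, both NAC transcripts given above, and 5 lower, namely the ERF012, HMGB7 and H3.3 transcripts. Among the 5, ppt_47242 and ppt_158132 were kept through ES1 alone. Over all transcripts 9.21% were higher and 11.8% lower, and over named ones 13.1% and 17.3%.

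**Figure D3:**
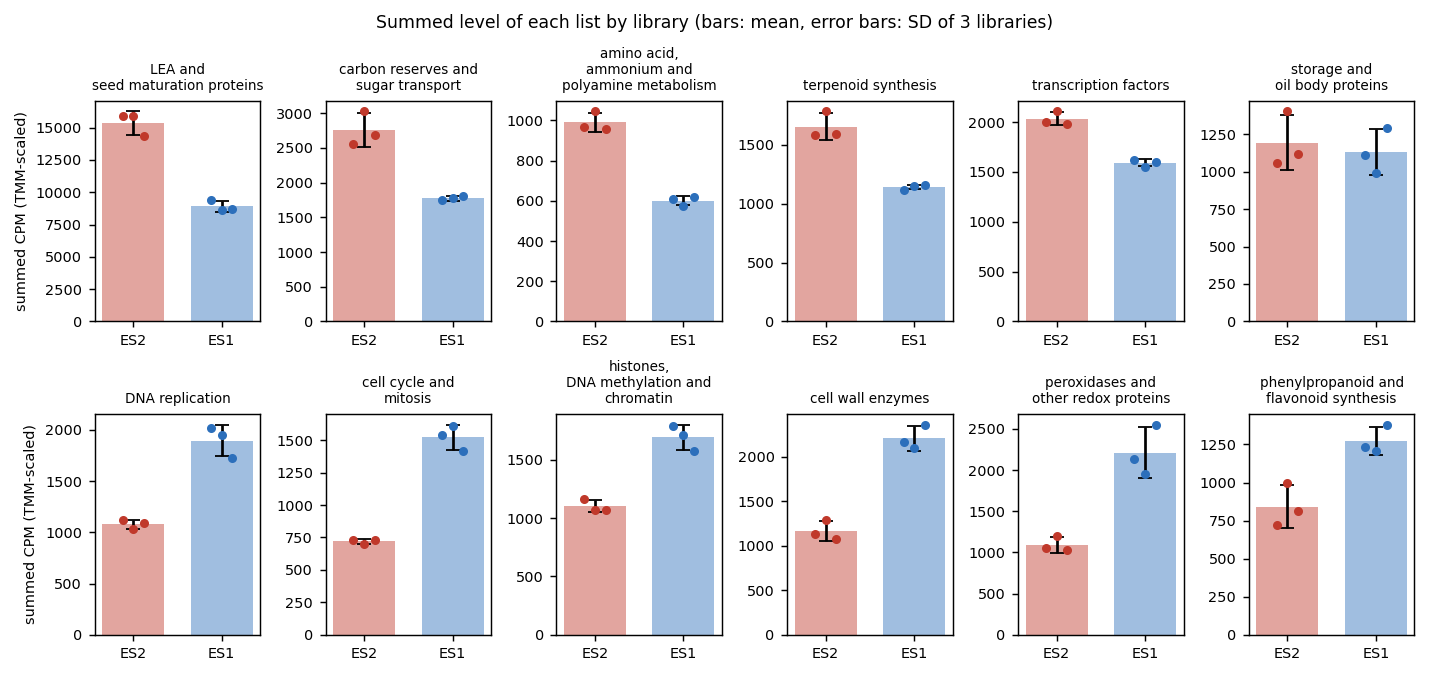
Summed CPM (TMM-scaled, bars from 0) of the kept transcripts of 12 gene lists in ES2 (red, left) and ES1 (blue, right); bars are means, points single libraries and error bars the SD of 3 libraries. The stages are separate in every panel but that of storage and oil body proteins, at 1192 ± 185 CPM in ES2 and 1131 ± 151 CPM in ES1.

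Phenylpropanoid and flavonoid synthesis had 6 of 35 transcripts lower, 1 of them kept through ES1 alone, and 2 higher, with a median log2 fold change of -0.50. The share lower, 17.1%, was close to the 17.3% over all named transcripts. Chalcone isomerase, an early enzyme of flavonoids, was lower in 3 of 3 transcripts, at a summed 49.5, 61.3 and 40 CPM in ES2 and 133.5, 119.5 and 164.7 CPM in ES1 (log2 fold change -1.47, SE 0.18, adjusted p = 0.000252; ppt_184799: -1.46). The groups lay well apart. Caffeic acid O-methyltransferase, of the lignin pathway, had a summed log2 fold change of -0.70 with 0 of 9 called (ppt_87978: -0.76). A flavanone 3-dioxygenase (ppt_255373) and a hydroxycinnamaldehyde dehydrogenase (ppt_181586) were at 0.89 and 0.90, both under the threshold.

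Pathogenesis-related proteins had 10 of 85 transcripts lower (11.8%) and 3 higher, where 11.8% of all transcripts and 17.3% of the named ones were lower, and the median of 0.03 turned to -0.16 with library size alone and to -0.15 without ES2 replicate B, where none was higher. Defensin-1, a small antimicrobial peptide of Scots pine, was lower in 4 of 4 transcripts, but 3 of these were above the minimum in ES1 alone, among them ppt_220687 (1.16, 1.31 and 1.43 CPM in ES2, 4.21, 5.89 and 5.29 CPM in ES1). A barwin-like protein was lower at 10.8, 10.4 and 9.16 CPM in ES2 (ppt_167606) and 30.2, 26.2 and 25.4 CPM in ES1 (log2 fold change -1.43). Of the chitinases, which digest fungal walls, 0 of 9 class I transcripts and 0 of 12 class IV transcripts of the name chitinase 4-4 were called. The class VII chitinase ppt_87273 had a log2 fold change of -1.03, which passed under the threshold without ES2 replicate A (-0.99), ES2 replicate B (-0.94) or ES1 replicate A (-0.91). Ginkbilobin, an antifungal protein of ginkgo seeds, was at 23.6, 24.0 and 20.8 CPM in ES2 (ppt_126365) and 10.5, 13.1 and 10.3 CPM in ES1 (log2 fold change 1.01). This call was lost without ES2 replicate A (0.999), ES2 replicate B (0.98), ES1 replicate A (0.96) or ES1 replicate C (0.95).

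The transcripts with the largest changes of all at 10 CPM or more carried no usable name. The transcript ppt_123625 was at 1186, 1230 and 1159 CPM in ES2, against 135.3, 89.5 and 75.4 CPM in ES1 (log2 fold change 3.57, SE 0.21, adjusted p = 8.85e-06), and ppt_140474 at 15.9, 10.1 and 15.9 CPM in ES2 against 1.12, 1.31 and 1.07 CPM in ES1 (log2 fold change 3.57). The transcript ppt_5571 was at 0.554, 0.909 and 0.0511 CPM in ES2 and 20.4, 17.4 and 16.9 CPM in ES1 (log2 fold change -5.19), and ppt_34463 at 0.0554, 0.739 and 0.384 CPM in ES2 and 11.2, 10.6 and 15.4 CPM in ES1 (log2 fold change -4.97). These last 3 were above the minimum in 1 stage alone. Switches in the strict sense were rare, with 1 transcript counted in all ES2 libraries and in no ES1 library, and 0 the other way. Of the calls, 1823 higher and 2320 lower had no usable name. With 1 transcript per name and at least 10 CPM in ES2, the 12 largest named increases also held the transporter ABCG39 (ppt_47453, log2 fold change 2.79), a galactosyltransferase (ppt_85904, 2.26), the chitin receptor-like kinase LYK5 (ppt_62460, 1.55), the ubiquitin protease UBP16 (ppt_79122, 1.73) and the splicing factor SMU2 (ppt_93487, 1.73).

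The zygotic step of the same rank, EC against PC, gave the frame in which the somatic step could be placed. The paper sets PC beside ES1 and EC beside ES2. By their labels ES2 and PC are both pre-cotyledonary, so the steps match in rank and not in embryo form. EC and PC share no library with ES2 and ES1, and embryo type, embryo form, genotype and culture cannot be told apart. Over the same 21844 transcripts EC against PC gave 1355 calls higher (6.2%) and 791 lower (3.62%). These transcripts were kept on ES1 and ES2 libraries alone, so those found only in zygotic embryos could not enter. The ES2 calls came from the fit of 6 libraries and the EC calls from that of 12. Totals and overlaps of the steps are therefore not on equal terms. Higher in both steps were 766 transcripts, 38.1% of those higher in ES2 and 56.5% of those higher in EC, and lower in both were 518, 20.2% of those lower in ES2 and 65.5% of those lower in EC. In opposite directions were 27 (higher in ES2, lower in EC) and 1. The difference of the steps, tested as an interaction over the 12 libraries, was called for 462 transcripts with a higher change in somatic embryos (2.11%) and for 818 with a lower one (3.74%). Of the transcripts higher in ES2 the interaction was higher for 281 and lower for 19. Of those lower in ES2 it was lower for 616 and higher for 3. The interaction holds the same ES2 and ES1 libraries as these calls, so agreement in sign is partly built in. With all 18 libraries in the fit the interaction was called higher for 250 transcripts and lower for 489.

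The 10 malate synthase transcripts had a median log2 fold change of 1.17 in EC against PC, and the interaction was called for 0 of them, at a median of -0.09. Scaled over the 12 libraries, their summed level was 1978 ± 210 CPM in ES2 and 915.5 ± 44.2 CPM in ES1, and 219 ± 8.72 CPM in EC and 101.5 ± 17.4 CPM in PC (SD, n = 3 libraries each). The replication and mitosis lists had medians of -0.60 and -0.52 in EC against PC, where 0 of 56 and 0 of 62 transcripts were called lower, and the interaction was lower for 0 and 2 of their transcripts. MCM4 summed to 131.8 ± 5.76 CPM in ES2 and 275.1 ± 23.7 CPM in ES1, and to 342.3 ± 17.97 CPM in EC and 574.3 ± 72.4 CPM in PC.

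Asparagine synthetase had fold changes of opposite sign in the steps. The interaction was higher for all 10 transcripts of the *Pinus pinaster* match, whose summed level was 699.7 ± 54.1 CPM in ES2 and 372.7 ± 17.8 CPM in ES1, against 4.18 ± 0.96 CPM in EC and 18.2 ± 2.49 CPM in PC. The white spruce LEA match ppt_115979 likewise was at 68.2 ± 7.76 CPM in ES2 and 20.3 ± 1.83 CPM in ES1, but at 0.0273 ± 0.0473 CPM in EC and 0.308 ± 0.099 CPM in PC. The zygotic values of ppt_115979 rest on 2 counts in 1 of the EC libraries, 0 in the other EC libraries and 6 to 14 counts in each PC library, so that no fold change is given for EC. The LHW-like ppt_219807 rose in both steps, by 2.04 in EC against PC, with an interaction of 1.04 (SE 0.29, adjusted p = 0.0424), both from the fit of 12 libraries.

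**Figure D4:**
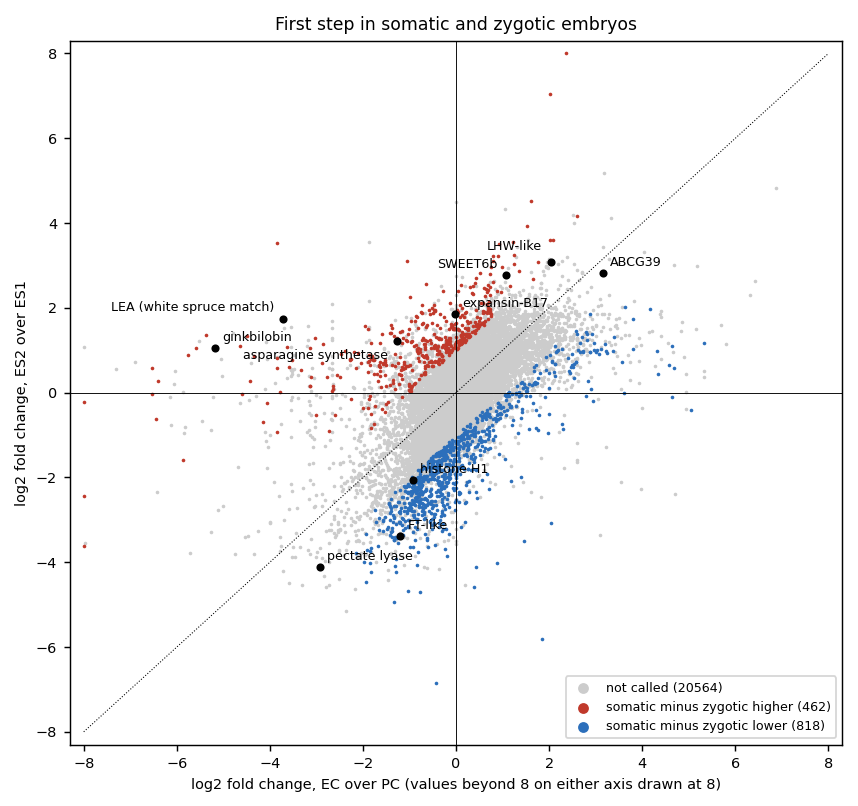
Log2 fold change of ES2 over ES1 (vertical) in the fit of 12 libraries against that of EC over PC (horizontal) for 21844 transcripts; red and blue points are the 462 and 818 transcripts with a higher and a lower interaction, black points are named, and the dotted line marks equal change. Pectate lyase is negative in both steps. Ginkbilobin and a LEA protein lie above zero in the somatic and below zero in the zygotic step, where their place on the axis rests on 6 and 2 counts in 1 EC library and 0 in the others.

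What followed after ES2 is given side by side with ES3, a comparison that shares the ES2 libraries with the one above. ES3 replicate C stood apart from the other ES3 libraries, with a TMM factor of 0.757 where replicates A and B had 0.910 and 0.939. Of 21844 transcripts 303 (1.39%) were higher in ES3 than in ES2 and 630 (2.88%) lower, or 639 (2.93%) and 1487 (6.81%) without ES3 replicate C. Scaled over the 9 somatic libraries, longifolene synthase summed to 92.7 ± 8.53 CPM in ES1, 239.6 ± 12.6 CPM in ES2 and 606.9, 512.1 and 414.5 CPM in ES3 replicates A, B and C. LHW-like transcripts summed to 10.4 ± 1.36 CPM in ES1, 75.0 ± 1.85 CPM in ES2 and 165.3, 194.4 and 253.7 CPM in ES3. Both were thus highest in ES3.

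Other names were lower or at a similar level in ES3. Asparagine synthetase summed to 329.6 ± 15.7 CPM in ES1, 605.2 ± 43.7 CPM in ES2 and 165.7, 62.8 and 594.6 CPM in ES3, where replicate C alone was near the ES2 level. Spermidine synthase (ppt_143495) was at 6.45 CPM in ES1, 12.3 CPM in ES2 and 4.78, 6.05 and 7.47 CPM in ES3 (log2 fold change of ES3 over ES2 -1.01, adjusted p = 0.0174). LEA1-2 had 1577 ± 74.8 CPM in ES1, 3550 ± 182 CPM in ES2 and 3628, 3523 and 4367 CPM in ES3, and ES3 replicates A and B lay close to the ES2 mean. MCM4 had its lowest values in ES3, at 243.4 ± 21.4 CPM in ES1, 114.1 ± 4.43 CPM in ES2 and 58.9, 76.2 and 75.6 CPM in ES3.

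**Figure D5:**
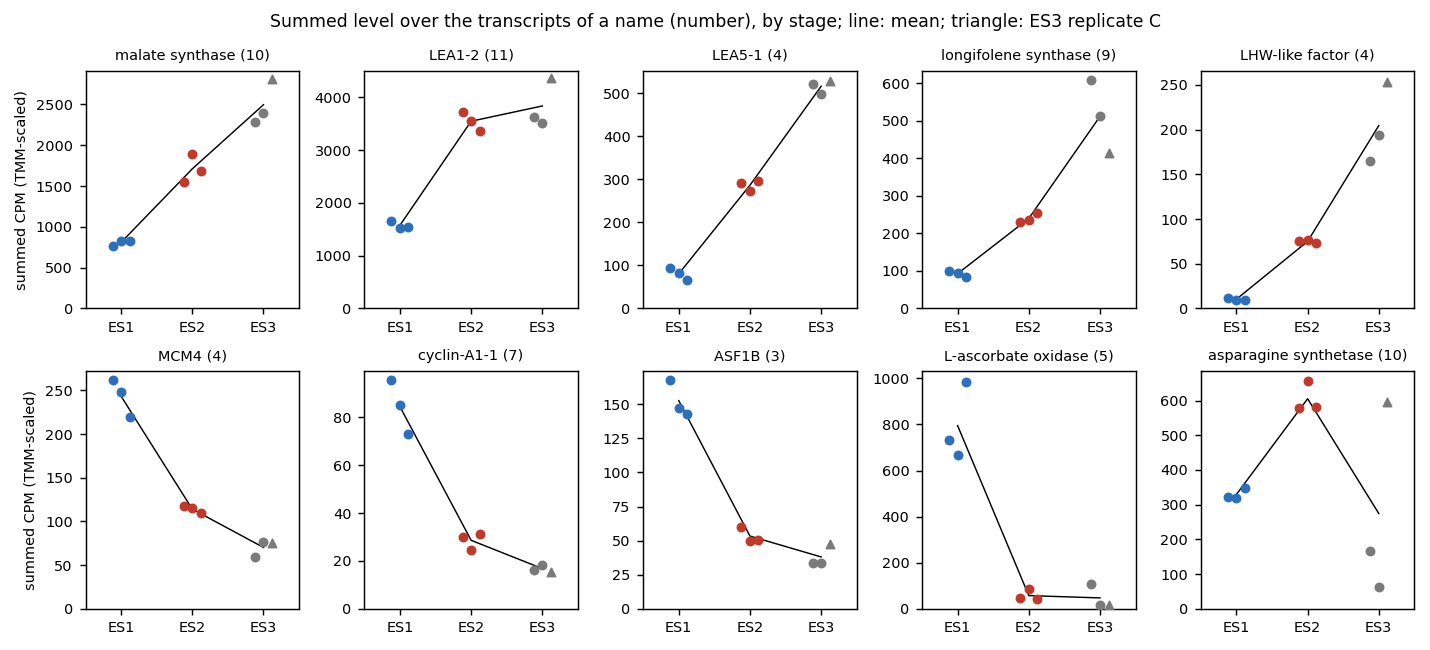
Summed CPM (scaled over 9 somatic libraries, linear axes from 0) of the transcripts of 10 names in ES1 (blue), ES2 (red) and ES3 (grey); points are libraries, triangles ES3 replicate C, and lines join the means. The 5 upper names are at their lowest in ES1, while asparagine synthetase is highest in ES2 on average and ranges between 62.8 and 594.6 CPM over the ES3 libraries.

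The organelle-encoded list had 4 transcripts with none called and log2 fold changes of -0.07 to 0.56. They were at low level in every library (summed 33.1 ± 12.4 CPM in ES2 and 28.1 ± 8.5 CPM in ES1). Names came from the study's supplementary tables alone, so these 4 do not stand for all organelle RNA and cannot check the RNA selection.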

How the data were processed

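RNA was sequenced as paired-end reads on a NovaSeq sequencer after poly(A) selection. The deposited values are counts of reads per transcript, whole numbers that the authors did not normalize. To make these counts the authors used SeqTrimBB for trimming, Trinity for assembly, BWA MEM for mapping to their pine transcriptome and sam2counts for counting. The version of BWA and the handling of reads that map to several transcripts are not stated in the paper's text or labels. The columns carry stage and replicate in their names, and 0 were left unused.

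Transcripts above 2 CPM in at least 3 of the 6 libraries were tested with edgeR 4.0.16 (quasi-likelihood F-test, TMM, R 4.3.3, limma 3.58.1), Benjamini-Hochberg adjusted over all 21844 of them. The standard error (SE) was taken as the size of the fold change on the log2 scale over the root of F. The ES2 to ES1 contrast used 6 libraries, the interaction and EC against PC 12, and ES3 against ES2 9. The tests were checked on simulated data. Named transcripts are up to 4 per list with the lowest p, the 12 largest changes per direction (1 per name, at least 10 CPM in the higher stage, no overlap), called hub transcription factors, the 8 with the most counts and the 2 largest changes per direction of any name. Members and lists were chosen with earlier results of these data known. Alternatives were other filters, scalings, tests (DESeq2 1.42.0, limma-voom), thresholds, fits, a replicate block, thinning to equal depth and leaving out libraries. The authors' comparisons were not used.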

Additional observations from a re-analysis of the deposited data

Results flagged for a closer look

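The step from ES1 to ES2 and the step from PC to EC were compared by an interaction over 12 libraries (edgeR, Benjamini-Hochberg adjusted over 21844 transcripts), and the results below were singled out because this test found the steps to differ. The steps match in rank and not in the embryo form of their labels, and the transcripts were kept on ES1 and ES2 libraries alone. The interaction was called for 462 transcripts with a higher change in somatic embryos and for 818 with a lower one. Interaction values are somatic minus zygotic differences on the log2 scale.

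Among the seed and nitrogen transcripts, the ginkbilobin match (ppt_126365) had an interaction of 6.23, with 24.5 ± 2.02 CPM in ES2 and 11.9 ± 1.67 CPM in ES1, and 0.082 ± 0.142 CPM in EC and 2.40 ± 1.86 CPM in PC (SD, n = 3 libraries each). The white spruce LEA match (ppt_115979) had 5.46. In EC these came to 6 counts (ppt_126365) and 2 counts (ppt_115979), in 1 library each and 0 in the others, so that the fitted size depends on the prior count and is no measured difference. The asparagine synthetases ppt_140062 and ppt_51012 had 3.04 and 2.49, with ppt_140062 at 128.3 ± 4.53 CPM in ES2 and 66.98 ± 1.59 CPM in ES1, and 0.705 ± 0.200 CPM in EC and 2.98 ± 0.42 CPM in PC. In EC all 4 averaged under 1 CPM. The amino acid transporter CAT6 (ppt_202096) had 1.10 and spermidine synthase (ppt_143495) 1.10.

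Of the other transcripts with a higher change in somatic embryos, expansin-B17 (ppt_217289) had 1.87, at 43.8 ± 2.66 CPM in ES2 and 12.2 ± 1.51 CPM in ES1, and 1.67 ± 0.10 CPM in EC and 1.69 ± 0.46 CPM in PC. SWEET6b (ppt_123492), kept through ES2 alone, had 1.68, the unnamed ppt_123625 had 1.52, the bHLH factor ppt_69105 had 1.21 and the LHW-like ppt_219807 had 1.04.

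On the lower side, the unnamed ppt_34463, kept through ES1 alone, had -3.60 and the FT-like match (ppt_247234) -2.19. FT-like was at 10.8 ± 3.49 CPM in ES2 and 113.2 ± 24.2 CPM in ES1, and 3.06 ± 0.43 CPM in EC and 7.03 ± 2.24 CPM in PC. Jasmonate O-methyltransferase had -1.45 (ppt_168568), -1.45 (ppt_168572) and -1.49 (ppt_168573), with ppt_168568 at 857.1 ± 52.7 CPM in ES2 and 723 ± 12.4 CPM in ES1, and 140.1 ± 22.3 CPM in EC and 43.2 ± 7.36 CPM in PC. Histone H1 (ppt_170248) had -1.14 and chromatin assembly factor 1 (ppt_120156) -1.01.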

How the results depend on the processing

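Of 74 named calls, 51 were kept under all 21 settings and 23 were lost under at least 1, all of them when the test itself was made against a fold of 2. Of these 23, 13 were also lost under some other setting, 9 of them with library size alone. The test against a fold of 2 called 615 transcripts higher and 1283 lower, no fold threshold called 4373 and 4611, and a minimum of 10 CPM, which left 12284 to test, called 1045 and 1520. DESeq2 called 2104 and 2519, and limma-voom 2010 and 2614. Leaving out 1 library gave 1919 to 2050 higher and 2414 to 2687 lower. Leaving out ES2 replicate B and ES1 replicate C together, chosen after seeing the data, gave 2013 and 2614. The letters did not pair the libraries (correlations of deviations 0.434 for A, -0.485 for B and -0.468 for C), and with the letter as a replicate block 1893 were higher and 2498 lower. The interaction gave 250 higher and 489 lower with all 18 libraries, and 358 to 487 and 616 to 917 with 1 library left out. Results that were not called turned sign for nad1 (ppt_145809, reported 0.39), with -0.069 without ES2 replicate C and -0.062 without ES1 replicate C (range to 0.84), and for cox3 (ppt_220254, reported -0.07), with 0.19, 0.12, 0.010 and 0.20 without ES2 replicate A, ES2 replicate B, ES1 replicate A and ES1 replicate B (range -0.66 to 0.20). They also did for caleosin CLO1-1 (ppt_56106, reported 0.12), with -0.081 for library size alone, -0.15 without ES2 replicate B and -0.083 without ES1 replicate B (range to 0.41). The causes were not tested. Of transcripts with a mean under 5 CPM, 12.4% were called higher and 12.2% lower.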
